A study of Mus musculus with 7 samples.

Results

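The 9 MHC class I presentation genes described here were H2-K1, H2-D1, H2-T23, B2m, Tap1, Tap2, Tapbp, Nlrc5 and Erap1, chosen by name out of the 52550 genes counted in sorted mouse Paneth cells. Each was found by its symbol, and all 9 passed the filter on low counts that left 17449 genes for testing. RNA came from 4 DSS libraries (DSS 1 to 4) and 3 water libraries (water 1 to 3). The DSS mice had 3% dextran sulfate sodium, a sulfated sugar polymer used to provoke colitis, in their drinking water over 7 days. They were analysed 3 days after it was withdrawn, and the control mice stayed on plain water. DSS 1 came from a mouse of 12 weeks and DSS 2, 3 and 4 from mice of 10 weeks, while water 1 and 2 came from mice of 12 weeks and water 3 from a mouse of 10 weeks. All mice were C57BL/6J and carried the Lgr5-EGFP-IRES-CreERT2 allele, a reporter and inducible recombinase placed at the locus of the crypt stem cell gene Lgr5. Live crypt cells of the small intestine were gated on CD24 against side scatter, and cells with the red cell, endothelial or leukocyte surface proteins TER119, CD31 or CD45 were discarded.

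MHC class I molecules display short peptides from a cell's own proteins to CD8 T cells and natural killer cells. The proteasome cuts the peptides, the TAP transporter carries them into the endoplasmic reticulum, an aminopeptidase trims them, and a loading complex places them on a heavy chain paired with beta-2-microglobulin. Interferon-gamma and the coactivator NLRC5 are known to raise transcription of most genes of this route, and gut epithelial cells display class I molecules on their surface.

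Paneth cell genes dominated the libraries. The summed level of 11 Paneth cell markers, in CPM (counts scaled to library size with TMM factors), was 125529 to 217933 in the DSS libraries and 255867 to 273554 in the water libraries. The label thus held in both groups, but every DSS library lay below every water library. Of the 11 markers, 10 had a log2 change, DSS over water, below 0. Total counts ran from 23175708 to 32451653 per library. TMM factors were 0.980 to 1.14 in the DSS libraries and 0.899 to 0.922 in the water libraries. Every day of RNA isolation held libraries of 1 group only, so day and treatment cannot be told apart. In bulk RNA, fewer cells of a type and less RNA per cell cannot be told apart either.

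Set per kilobase of exon, B2m was the most abundant of the 9 genes and Nlrc5 the least. Over the 7 libraries B2m averaged 271 CPM per kilobase, H2-K1 136, H2-D1 87.1 and H2-T23 35.4. The tapasin gene Tapbp followed at 19.1 CPM per kilobase and Erap1 at 14.1. The transporter genes were lower, with 3.05 CPM per kilobase for Tap1 and 2.57 for Tap2, and Nlrc5 averaged 0.339. Each gene's range over the 7 libraries lay apart from that of the next gene in this order, except for Tap1 and Tap2. Tap1, at 2.25 to 3.60 CPM per kilobase, and Tap2, at 2.09 to 2.99, overlapped. The length used was that of all annotated exons, 5476 bases for Tap1 and 3781 for Tap2. Their longest coding transcripts had 2953 and 3442 bases, so these levels and overlaps depend on the length used.

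**Figure D1:**
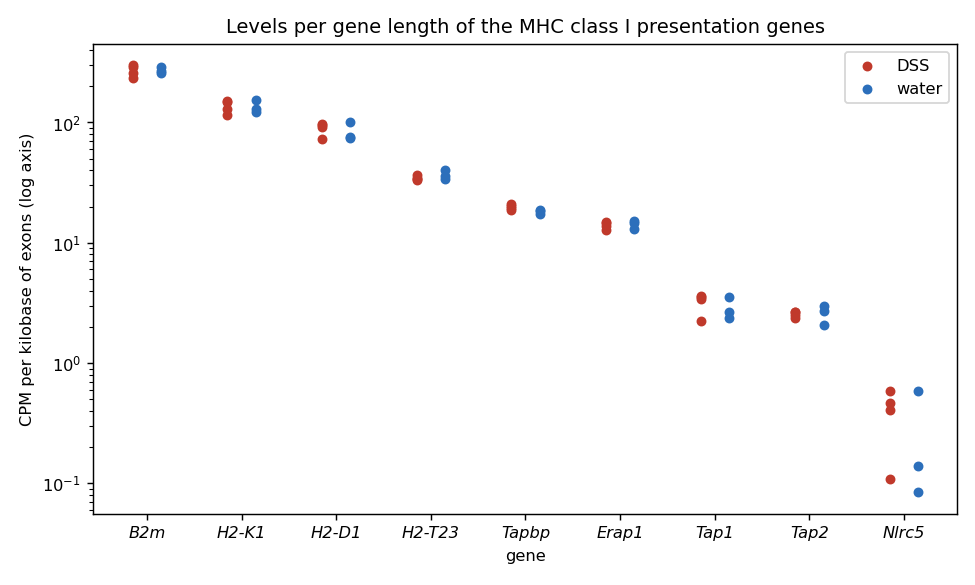
Level of each of the 9 genes in CPM per kilobase of exon on a log axis, with 1 point per library, DSS left of water. B2m lay between 232 and 298 and Nlrc5 between 0.0841 and 0.586, and only the ranges of Tap1 and Tap2 overlapped as neighbours.

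The promoters of the classical heavy chains and of their partners are shown because interferon and NLRC5 are known to act on this gene group through promoter elements. The stretches are RefSeq sequence of build GRCm38.p6, from 250 bases before to 50 bases after the annotated start, written 5′ to 3′ along the gene. H2-K1 lies on the minus strand at chr17:34000298-34000597, H2-D1 on the plus strand at chr17:35262844-35263143, B2m on the plus strand at chr2:122147437-122147736 and Tap1 on the plus strand at chr17:34187306-34187605. Capitals mark matches on either strand to AANNGAAA (an interferon regulatory factor element), TTCNNNGAA (a STAT element), GGGGANNCC (an NF-kB element), CCAAT (the Y box bound by NF-Y) and TGACG (a CREB/ATF core).
H2-K1: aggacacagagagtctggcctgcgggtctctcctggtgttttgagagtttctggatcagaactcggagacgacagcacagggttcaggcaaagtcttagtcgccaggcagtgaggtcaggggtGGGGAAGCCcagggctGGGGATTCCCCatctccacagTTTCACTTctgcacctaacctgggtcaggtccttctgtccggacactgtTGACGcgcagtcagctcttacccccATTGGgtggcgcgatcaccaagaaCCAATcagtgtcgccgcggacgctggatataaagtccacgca
H2-D1: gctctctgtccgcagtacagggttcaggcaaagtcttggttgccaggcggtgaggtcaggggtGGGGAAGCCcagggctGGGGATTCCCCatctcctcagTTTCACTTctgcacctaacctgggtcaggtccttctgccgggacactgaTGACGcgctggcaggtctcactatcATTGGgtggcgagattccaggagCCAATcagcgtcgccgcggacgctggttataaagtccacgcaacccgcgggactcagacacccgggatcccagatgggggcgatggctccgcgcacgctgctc
B2m: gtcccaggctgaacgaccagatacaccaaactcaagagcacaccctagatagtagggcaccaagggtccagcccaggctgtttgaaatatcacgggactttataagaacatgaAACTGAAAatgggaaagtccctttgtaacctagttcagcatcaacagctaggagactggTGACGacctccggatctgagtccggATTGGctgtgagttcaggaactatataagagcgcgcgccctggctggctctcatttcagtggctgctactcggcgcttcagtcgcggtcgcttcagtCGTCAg
Tap1: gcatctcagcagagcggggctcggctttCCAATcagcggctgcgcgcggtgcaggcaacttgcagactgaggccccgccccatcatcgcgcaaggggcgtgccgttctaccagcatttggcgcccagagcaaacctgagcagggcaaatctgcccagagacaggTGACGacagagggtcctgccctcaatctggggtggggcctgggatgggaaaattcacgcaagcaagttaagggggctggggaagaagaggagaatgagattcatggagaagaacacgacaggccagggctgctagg

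H2-K1 and H2-D1 carried the same elements in the same order, namely 2 NF-kB stretches, an interferon regulatory factor element, a CREB/ATF core and 2 Y boxes, and their longest identical run was 47 bases. In both, the second NF-kB stretch matched on each strand, in overlapping positions. The first of these elements began at position -127 relative to the start in H2-K1 and at position -187 in H2-D1. For H2-K1, 2 starts were annotated and only the window of the first listed is shown, so its positions depend on that choice. B2m had an interferon regulatory factor element from position -137, 2 CREB/ATF cores and a Y box. The Tap1 window held a Y box and a CREB/ATF core, and shared 275 of its 300 bases with the promoter of Psmb9, which is read in the opposite direction from a start 226 bases away. Among 27025 promoters of this length, 24.2% held the interferon regulatory factor letters, 8.47% the STAT letters, 6.11% the NF-kB letters, 37.9% the Y box and 21% the CREB/ATF core. These are letter matches in a fixed window, and 7 of the 9 genes were in the promoter table, Tap2 and Nlrc5 being the others.

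The heavy chain genes and B2m stood at nearly the same level in DSS and water Paneth cells. H2-K1, which encodes the classical heavy chain H-2K (chr17:33996017-34000333, minus strand, mm10), was at 302, 389.7, 336 and 386 CPM in DSS 1 to 4, against 322, 399 and 339.5 CPM in water 1 to 3. The highest value was in water 2 and the lowest in DSS 1, and the groups overlapped across nearly their whole range. The means were 353 ± 42.2 CPM in DSS and 354 ± 40.7 CPM in water (SD, n = 4 and 3), and the log2 change, DSS over water, was -0.00029 ± 0.11 (SE) with a 95% interval of -0.26 to 0.26 and an adjusted p of 0.999 (edgeR quasi-likelihood test, Benjamini-Hochberg).

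H2-D1, the other classical heavy chain gene of this strain (chr17:35262730-35267499, plus strand), was at 189, 251, 245 and 237 CPM in DSS 1 to 4, against 192, 262 and 196 CPM in water 1 to 3. DSS 1, water 1 and water 3 were low and the other 4 libraries high, so the groups overlapped. Its log2 change was 0.090 ± 0.14 (SE; 95% interval -0.22 to 0.40, edgeR adjusted p = 0.803). B2m, the invariant light chain (chr2:122147686-122153083, plus strand), was at 199.8, 248, 221 and 257 CPM in DSS 1 to 4, against 232, 249.7 and 222 CPM in water 1 to 3. DSS libraries held both the lowest and the highest B2m values, and the log2 change was -0.020 ± 0.10 (SE; 95% interval -0.24 to 0.20, edgeR adjusted p = 0.946).

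The balance of heavy to light chain differed by less than the spread of the water libraries. The log2 ratio of H2-K1 plus H2-D1 counts to B2m counts was 1.30, 1.37, 1.39 and 1.28 in DSS 1 to 4, against 1.15, 1.41 and 1.27 in water 1 to 3. The means were 1.33 ± 0.057 in DSS and 1.27 ± 0.13 in water (SD, n = 4 and 3), a difference of 0.061 (two-sided exact permutation test, p = 0.543, and 0.543 adjusted over 3 ratios). With 35 splits the smallest p this test can give is 0.0286.

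H2-T23 encodes Qa-1, a nonclassical molecule that presents leader peptides of other class I chains to the CD94/NKG2 receptors. It was at 106, 98.8, 95.6 and 97.4 CPM in DSS 1 to 4, against 97.4, 116 and 104 CPM in water 1 to 3. Water 2 was highest and the groups overlapped, and the log2 change was -0.089 ± 0.072 (SE; 95% interval -0.25 to 0.07, edgeR adjusted p = 0.602). Primary alignments were counted, so a read from a stretch that related genes share may be counted for either. In all, 28.8% of the 50-base windows of the H2-T23 transcript also occurred exactly in another gene, most often H2-T-ps, against 14.3% for H2-D1, 8.79% for H2-K1 and none for B2m, Nlrc5 or Erap1.

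**Figure D2:**
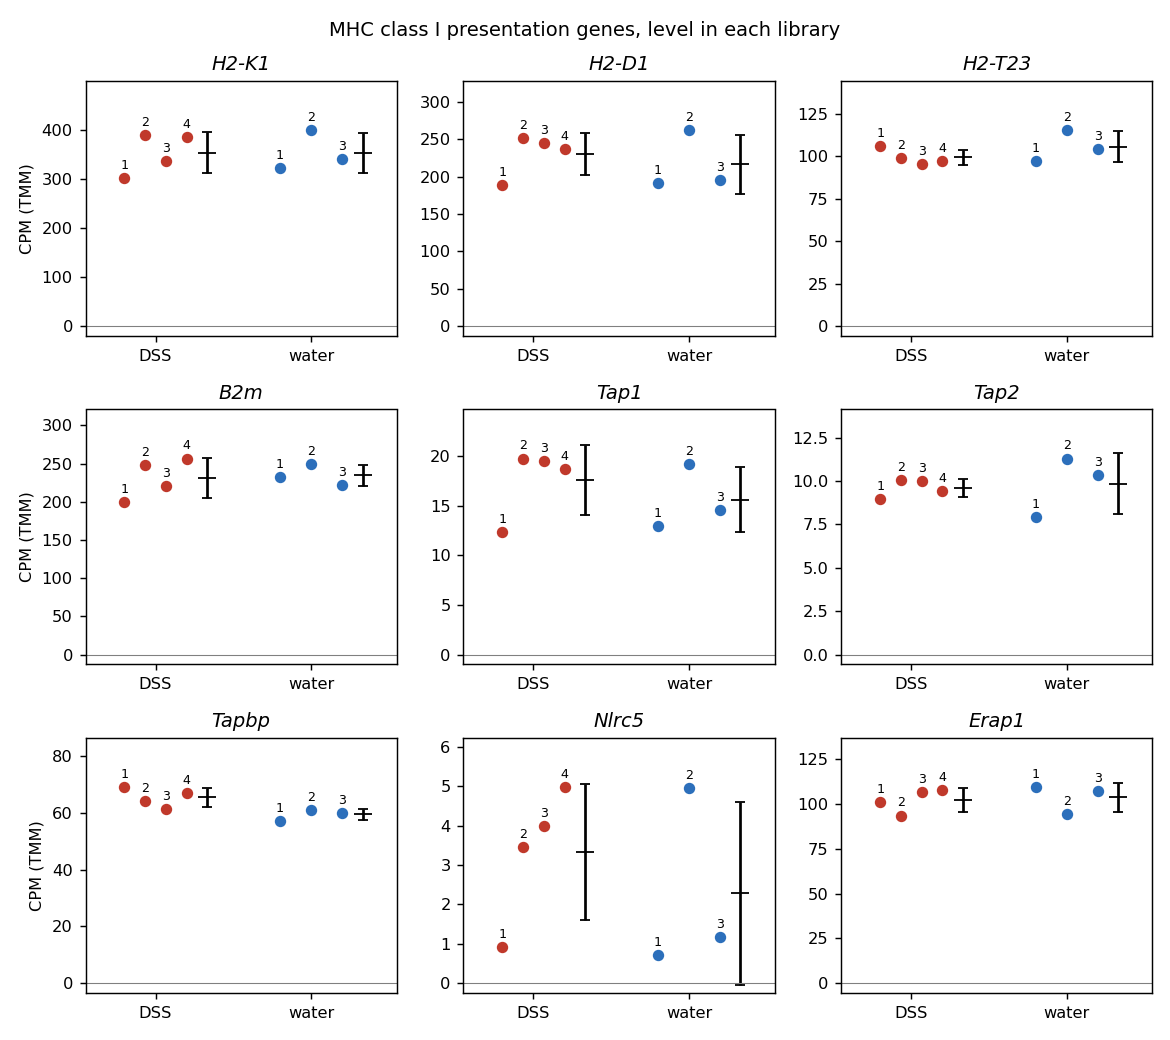
CPM of the 9 genes in each library, DSS left of water, with 1 point per library and the group mean with its SD; each panel has its own axis, which includes 0. The groups overlap in every panel but that of Tapbp, where the 4 DSS libraries lie between 61.5 and 69.1 CPM and the 3 water libraries between 57.2 and 61.1 CPM.

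Among the genes of peptide transport, loading and trimming, Tapbp was the one whose DSS libraries all lay above the water libraries. Tapbp encodes tapasin, which holds empty class I molecules next to the transporter (chr17:33915899-33929288, plus strand). It was at 69.1, 64.3, 61.5 and 67.1 CPM in DSS 1 to 4, against 57.2, 61.1 and 60.1 CPM in water 1 to 3. The lowest DSS value, in DSS 3, lay just above the highest water value, in water 2, so the groups separated by a narrow margin. The means were 65.5 ± 3.31 CPM in DSS and 59.5 ± 2.01 CPM in water (SD, n = 4 and 3). The log2 change was 0.14 ± 0.061 (SE; edgeR unadjusted p = 0.048, adjusted p = 0.314). Over all genes tested, 7.4% had every DSS library above every water library and 15.7% had an unadjusted p under 0.05, so 1 of 9 genes by either count is close to the background. Of the Tapbp exon bases, 20.2% overlap the antisense gene Gm19412, and the counting did not use strand.

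Tap1 and Tap2 encode the subunits of the peptide transporter and neighbour each other in the MHC, Tap1 at chr17:34187553-34197225 and Tap2 at chr17:34203527-34216321, both on the plus strand. Tap1 was at 12.3, 19.7, 19.5 and 18.6 CPM in DSS 1 to 4, against 13.0, 19.2 and 14.6 CPM in water 1 to 3. As for H2-D1, DSS 1, water 1 and water 3 were low, and the log2 change was 0.18 ± 0.19 (SE; 95% interval -0.24 to 0.59, edgeR adjusted p = 0.700). Tap2 was at 8.95, 10.0, 10.0 and 9.44 CPM in DSS 1 to 4, against 7.90, 11.3 and 10.3 CPM in water 1 to 3. Both the lowest and the highest Tap2 values were in water libraries, and the log2 change was -0.032 ± 0.13 (SE; edgeR adjusted p = 0.934). On the opposite strand, 3.87% of the Tap1 exon bases overlap Psmb9 and 14.1% of the Tap2 exon bases overlap Gm15821. The log2 ratio of Tap1 to Tap2 was 0.46 in DSS 1 and 0.96 to 0.98 in the other DSS libraries, against 0.72, 0.77 and 0.50 in water 1 to 3. The mean ratio was 0.85 ± 0.25 in DSS and 0.66 ± 0.14 in water (SD, n = 4 and 3; two-sided exact permutation test, p = 0.4, and 0.543 adjusted over 3 ratios).

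Erap1, the aminopeptidase that trims peptides inside the endoplasmic reticulum (chr13:74639568-74693201, plus strand), was the steadiest of the 9 genes. It was at 101, 93.6, 107 and 108 CPM in DSS 1 to 4, against 109.5, 94.5 and 107 CPM in water 1 to 3. The groups overlapped, the highest library exceeded the lowest by 1.17-fold, and the log2 change was -0.020 ± 0.076 (SE; 95% interval -0.19 to 0.15, edgeR adjusted p = 0.931). Of its exon bases 11.5% overlap the oppositely read gene Cast, which averaged 78.6 ± 4.48 CPM in DSS and 79.7 ± 4.74 CPM in water (SD, n = 4 and 3).

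Nlrc5, the coactivator that sits at class I promoters (chr8:94434356-94527272, plus strand), varied most. It was at 0.926, 3.45, 3.98 and 4.98 CPM in DSS 1 to 4, against 0.714, 4.95 and 1.17 CPM in water 1 to 3. DSS 1, water 1 and water 3 were low and DSS 2, 3, 4 and water 2 high, and the highest value exceeded the lowest 5.38-fold within DSS and 6.93-fold within water. The 95% Poisson intervals of the counts, which cover counting error only, reached up to 1.70 CPM in the 3 low libraries and began at 2.85 CPM or above in the 4 high ones. Over all 7 libraries that ratio was 6.97, and 2.71% of all genes tested had a larger ratio. The other 8 genes ran from 1.17 for Erap1 to 1.60 for Tap1. The median was 1.42 over all genes tested and 1.28 over those of average log2 CPM of at least 3, a level these 8 genes reached. H2-T23, Tapbp and Erap1 lay below that second median, while H2-K1, H2-D1, B2m, Tap1 and Tap2 lay above it. The log2 change of Nlrc5 was 0.58 ± 0.67 (SE; 95% interval -0.93 to 2.09, edgeR adjusted p = 0.726), and it was 1.82 without water 2 (adjusted p = 0.379) and 0.16 without water 1. Among the 12-week mice DSS 1 and water 1 were low and water 2 high, and among the 10-week mice DSS 2, 3 and 4 were high and water 3 low.

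Of the 9 genes, none was called higher or lower in DSS by edgeR, at an adjusted p under 0.05, where 0% of the 17449 genes were called in either direction. At an unadjusted p under 0.05 Tapbp alone passed. DESeq2 called none of the 9 genes, and it called 2.62% of 13223 genes higher and 2.24% lower. By limma-voom none of the 9 was called, and 0 of all 17449 genes were called higher or lower. None of the 9 was called without a low-count filter, where 0.684% of 35081 genes were called higher and 0.573% lower. Nor was any called without DSS 1, where 0.97% of 17319 genes were called higher and 0.779% lower. With shares this low, 0 of 9 genes is close to the background. The estimates were above 0 for 4 genes and below 0 for 5, with a median log2 change of -0.00029 beside -0.0015 for all genes tested. The intervals bound the change most tightly for Tapbp, Erap1 and H2-T23 and least for Nlrc5. Scaling by library totals alone moved the median of all genes to 0.23 and turned the sign of H2-K1, H2-T23, B2m, Tap2 and Erap1. It called 12.1% of genes higher and 0.16% lower, and among the 9 genes it called Tapbp, at a log2 change of 0.37 (edgeR adjusted p = 0.0350).

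**Figure D3:**
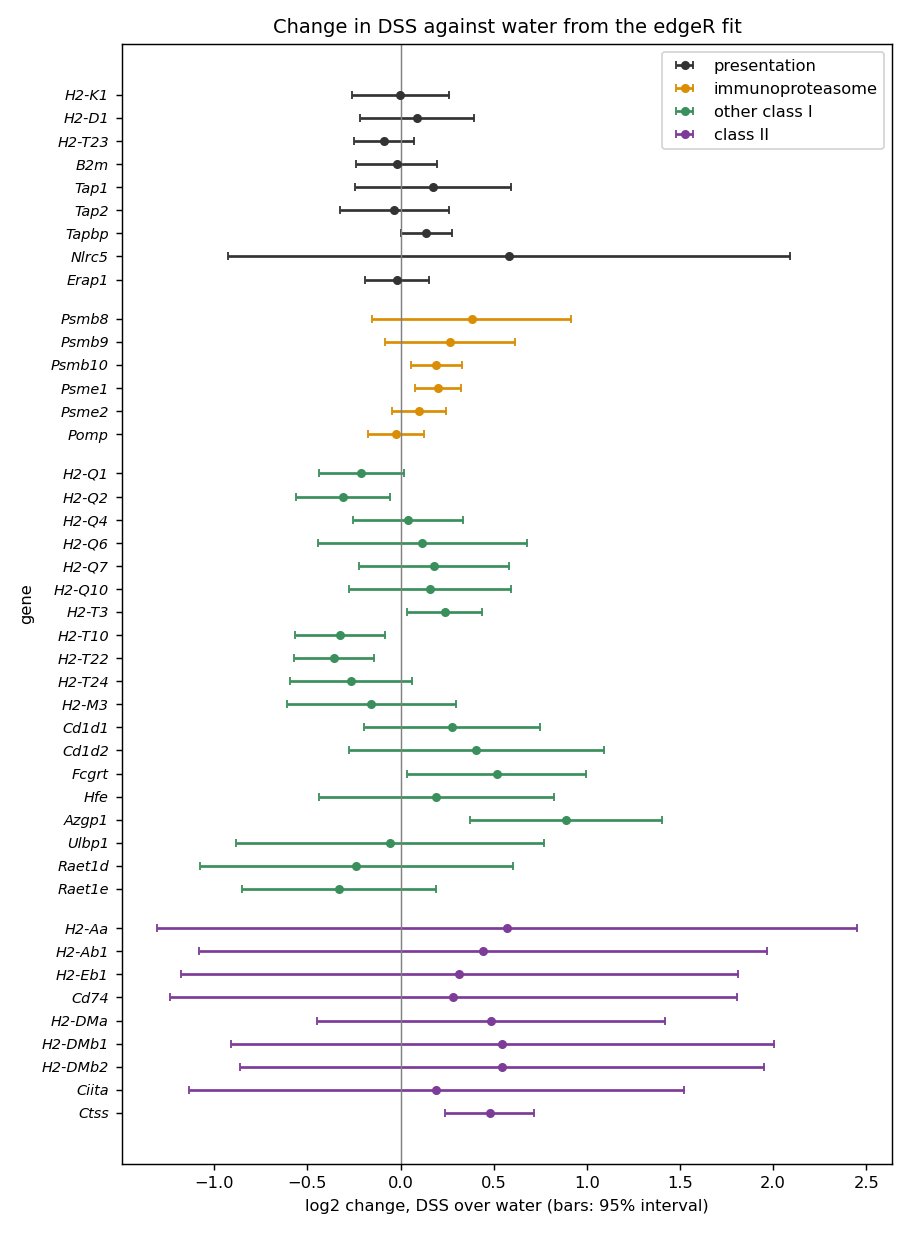
Log2 change, DSS over water, of the 9 genes and of the tested immunoproteasome, other class I and class II genes, with 95% intervals from the edgeR fit. The interval of Nlrc5, from -0.93 to 2.09, is the widest of the 9 genes, and those of H2-K1, B2m, Tap2 and Erap1 are centred near 0.

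Several of the 9 genes shared a split of the libraries that crossed the groups. Their mean log2 deviation from each gene's own mean was -0.25, 0.13, 0.12 and 0.19 in DSS 1 to 4, against -0.29, 0.23 and -0.14 in water 1 to 3. DSS 1, water 1 and water 3 were thus below 0 and the other 4 above it, and Nlrc5 contributed the widest swing to that mean. The same 3 libraries were the 3 lowest for H2-D1, Tap1 and Nlrc5, which is 3 of the 9 genes, where 3.23% of all genes tested had them lowest. The trio was chosen after its values were seen, so these counts are a description. For B2m and H2-K1, DSS 1 was lowest as well, but DSS 3 was also among the 3 lowest. The 3 lowest libraries were DSS 1, DSS 4 and water 1 for Tap2, and DSS 3, DSS 4 and water 1 for H2-T23. H2-T23, Erap1 and Tapbp did not follow the split: DSS 2 was lowest for Erap1, and the 3 water libraries were lowest for Tapbp. Pearson's r with the mean of the other members was 0.054 for H2-T23, -0.48 for Erap1 and 0.14 for Tapbp. For the remaining members it was 0.68 to 0.96.

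MHC class II genes, which present peptides to CD4 T cells and depend on CIITA, a coactivator related to NLRC5, showed the same split of libraries with a wider swing. DSS 1, water 1 and water 3 were lowest for 8 of 9 class II genes. The order of single libraries differed. The 9-gene mean was lowest in water 1 and highest in water 2, whereas H2-Aa and Cd74 were lowest in DSS 1 and highest in DSS 4. H2-Aa, a class II alpha chain gene, was at 1.06, 21.9, 29.2 and 39.4 CPM in DSS 1 to 4, against 8.03, 30.6 and 8.18 CPM in water 1 to 3. Ciita was at 1.85, 5.71, 6.84 and 10.8 CPM in DSS 1 to 4, against 2.99, 10.8 and 3.02 CPM in water 1 to 3. For both genes DSS 1 was lowest and the groups overlapped, and the log2 changes were 0.57 ± 0.83 for H2-Aa and 0.19 ± 0.59 for Ciita (SE; edgeR adjusted p = 0.793 for H2-Aa). Cd74, the class II invariant chain, reached 17.3 CPM in DSS 1 and 154 to 205 CPM in the other DSS libraries, against 71.7, 195 and 67.7 CPM in water 1 to 3. H2-Ab1, a class II beta chain gene, was at 5.11 CPM in DSS 1 and 48.2 to 68.3 CPM in the other DSS libraries, against 19.4, 55.5 and 20.5 CPM in water 1 to 3. Of the 9 class II genes edgeR called 0. Ctss, the protease that degrades the invariant chain, was the single one with all DSS libraries above all water libraries, where 7.4% of all genes were, and the single one with an unadjusted p under 0.05. Its log2 change was 0.48 ± 0.11 (SE, edgeR adjusted p = 0.138). Ctss was called by DESeq2 (adjusted p = 0.0102), where 2.62% of genes were called higher. It was also called by edgeR without the low-count filter (adjusted p = 0.0381), where 0.684% were. H2-DMa, a subunit of the class II peptide editor, was at 0.48 ± 0.41 with overlapping groups.

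**Figure D4:**
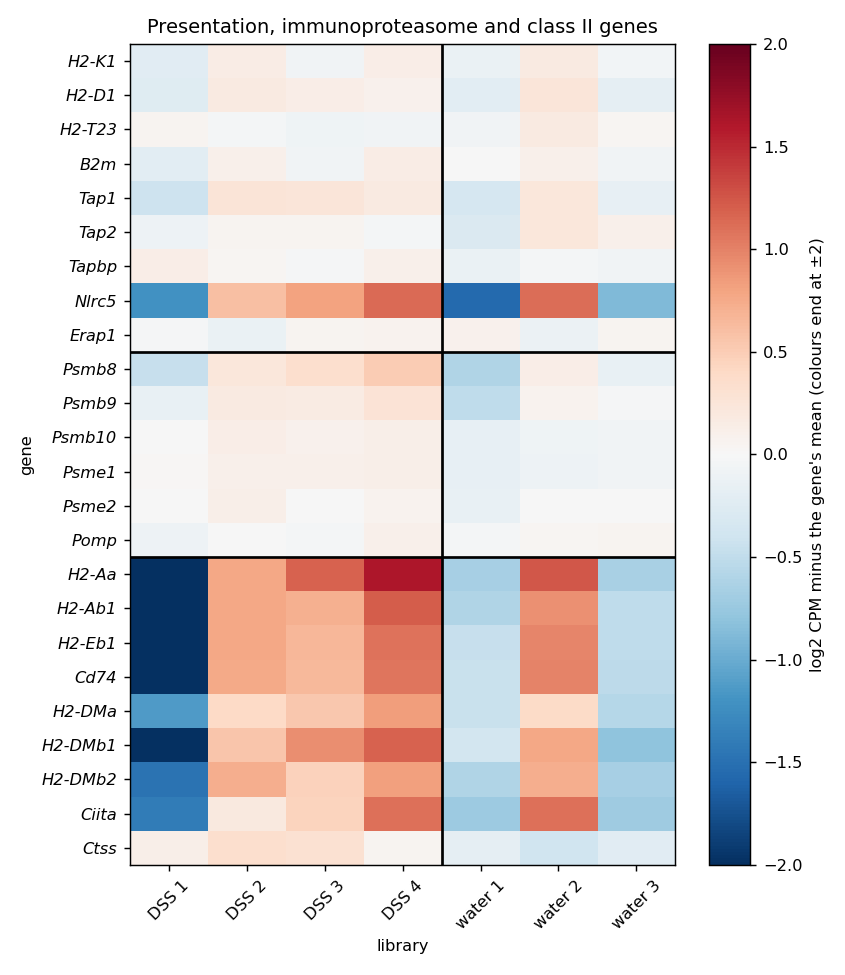
Log2 CPM of each gene minus its mean over the 7 libraries, in colour, for the presentation, immunoproteasome and class II genes, with the 4 DSS libraries left of the 3 water libraries; colours end at ±2. DSS 1, water 1 and water 3 are low for Nlrc5 and for 8 of the 9 class II genes, and Erap1 is nearly even.

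Most leukocyte markers were near 0 in every library. None of the 4 that were tested had DSS 1, water 1 and water 3 lowest. Only 3.23% of all genes tested had them lowest, so this count says little about these markers. Of 17 markers of intraepithelial and other T cells, 15 had at most 10 counts in every library and 6, among them Cd3g and Gzmb, had 0. Cd3e, a chain of the T cell receptor complex, had at most 1 count in any library. The summed T cell level was 1.58 to 2.38 CPM in DSS and 1.39 to 2.14 CPM in water. Of 21 general leukocyte markers 16 had at most 10 counts in every library, and Tyrobp, Cd53 and S100a8 had 0. The leukocyte sum, made up mostly of Lcp1 and Ptprc, was 77.4, 82.7, 69.6 and 64.7 CPM in DSS 1 to 4, against 65.5, 76.5 and 59.9 CPM in water 1 to 3. Ptprc, which encodes CD45, was at 10.2, 16.4, 16.8 and 7.86 CPM in DSS 1 to 4, against 9.24, 13.5 and 8.10 CPM in water 1 to 3. Ptprc was thus highest in DSS 2, DSS 3 and water 2 and lowest in DSS 4. The part of leukocytes in the levels of the 9 genes was not tested. Markers of tuft cells, chemosensory epithelial cells, summed to 542, 1010.1, 1012 and 515 CPM in DSS 1 to 4, against 544, 598 and 543 CPM in water 1 to 3. Enteroendocrine markers summed to 918, 545, 1307 and 1265 CPM in DSS 1 to 4, against 68.8, 1537 and 2779 CPM in water 1 to 3. Goblet cell markers summed to 7808 to 12966 CPM in DSS and 9877 to 11034 CPM in water. Crypt base stem cell markers summed to 4355 to 5351 CPM in DSS and 4521 to 5398 CPM in water. The part of these other epithelial cells in the levels of the 9 genes was not tested.

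The immunoproteasome, the interferon-inducible form of the proteasome that favours class I peptides, had mostly positive estimates in DSS, and neither edgeR nor DESeq2 called a gene of it. All 6 of its listed genes were tested: 0 were called, 5 had estimates above 0 and the median log2 change was 0.20. Psmb10 was at 43.0, 47.4, 46.0 and 46.7 CPM in DSS 1 to 4, against 38.4, 40.6 and 41.3 CPM in water 1 to 3. Every DSS library lay above every water library, and the log2 change was 0.19 ± 0.06 (SE; edgeR adjusted p = 0.200). Psme1, a subunit of the PA28 activator, was at 74.4, 78.2, 77.9 and 78.9 CPM in DSS 1 to 4, against 65.0, 67.7 and 69.2 CPM in water 1 to 3. Its groups did not overlap either, with a log2 change of 0.20 ± 0.05 (SE; edgeR adjusted p = 0.164). Psme2, the partner subunit of PA28, stood at 0.10 ± 0.06 with overlapping groups. Psmb10 and Psme1 made 2 of 6 genes, where 7.4% of all genes had every DSS library above every water library. With scaling by library totals alone, which called 12.1% of all genes higher, Psmb10, Psme1 and Psme2 were called (edgeR adjusted p = 0.0350, 0.0350 and 0.0436).

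Psmb8 and Psmb9, the catalytic subunits encoded beside Tap1 and Tap2, instead had DSS 1, water 1 and water 3 as their 3 lowest libraries. Psmb8 was at 12.7, 20.6, 22.2 and 25.1 CPM in DSS 1 to 4, against 11.5, 19.3 and 15.7 CPM in water 1 to 3, with a log2 change of 0.38 ± 0.24 (SE; edgeR adjusted p = 0.473). Psmb9 was at 11.6, 14.5, 14.4 and 15.6 CPM in DSS 1 to 4, against 8.97, 13.5 and 12.6 CPM in water 1 to 3, with a log2 change of 0.26 ± 0.15 (SE; edgeR adjusted p = 0.449). The groups overlapped for each gene. The constitutive counterparts stayed near 0, with log2 changes of -0.07 for Psmb5, -0.02 for Psmb6 and 0.0016 for Psmb7. The log2 ratio of Psmb8, Psmb9 and Psmb10 to Psmb5, Psmb6 and Psmb7 was -0.97, -0.69, -0.53 and -0.53 in DSS 1 to 4, against -1.13, -0.87 and -0.85 in water 1 to 3. DSS 1 lay within the range of the water libraries, and the means of -0.68 ± 0.21 in DSS and -0.95 ± 0.15 in water (SD, n = 4 and 3) differed by 0.27 (two-sided exact permutation test, p = 0.143, and 0.429 adjusted over 3 ratios).

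Other class I and class I-like genes had estimates on both sides of 0. None was called by edgeR, while DESeq2 called H2-T22 lower and Azgp1 higher, where it called 2.24% of 13223 genes lower and 2.62% higher. Of 25 listed genes 19 were tested, and H2-M2, H2-M5, Mr1, Procr, H60b and H60c had at most 10 counts in every library. At an unadjusted p under 0.05, 3 were higher and 3 lower in DSS, where 8.36% and 7.35% of all genes were, and the median log2 change was 0.039, which was -0.080 without water 1 and -0.066 without water 2. H2-T22, whose product is bound by some gamma-delta T cells, was at 29.9, 28.9, 22.7 and 27.6 CPM in DSS 1 to 4, against 33.3, 36.3 and 35.3 CPM in water 1 to 3. All DSS libraries lay below all water libraries, with a log2 change of -0.36 ± 0.09 (SE; edgeR adjusted p = 0.162, DESeq2 adjusted p = 0.0353). Its near copy H2-T10 had a log2 change of -0.33 ± 0.11 (SE; edgeR adjusted p = 0.209), and 44.7% of the 50-base windows of H2-T22 occurred in another gene, so their counts are not independent. H2-T3, which encodes the thymus leukemia antigen of gut epithelium, was at 21.4 to 24.4 CPM in the 4 DSS libraries, against 19.7, 16.7 and 20.4 CPM in water 1 to 3. All its DSS libraries lay above all water libraries (log2 change 0.24 ± 0.09, edgeR adjusted p = 0.256). Azgp1, a secreted class I-like glycoprotein, had a log2 change of 0.89 ± 0.23 (SE; edgeR adjusted p = 0.157, DESeq2 adjusted p = 0.0344). Fcgrt, the neonatal Fc receptor gene, was the third gene on the higher side, at 0.52 ± 0.21 with overlapping groups. Estimates were -0.21 ± 0.10 for H2-Q1, -0.31 ± 0.11 for H2-Q2, -0.16 ± 0.20 for H2-M3 and 0.28 ± 0.21 for Cd1d1 (SE), the last an antigen-presenting molecule for lipids.

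Chaperones and trimming enzymes of the loading route had mostly negative estimates under TMM scaling. Under library totals only, 15 estimates were above 0 and 3 below, with a median of 0.11. With TMM scaling edgeR called none, while DESeq2 called Uggt1 and Nrd1 lower, where it called 2.24% of 13223 genes lower. All 18 were tested, 6 had an unadjusted p under 0.05 and lower DSS values against 7.35% of all genes, and the median log2 change was -0.12. Calr and Canx, the lectin chaperones that fold the heavy chain, had log2 changes of -0.25 ± 0.11 and -0.19 ± 0.07 (SE; edgeR adjusted p = 0.316 and 0.251). Pdia3, the disulfide isomerase of the loading complex, was at -0.16 ± 0.12. Nrd1, a peptidase gene, was at -0.22 ± 0.06 (SE; edgeR adjusted p = 0.154, DESeq2 adjusted p = 0.0147), with 113 to 121 CPM in DSS and 131 to 139 CPM in water. Uggt1, which checks glycoprotein folding, was at -0.30 ± 0.08 (SE; edgeR adjusted p = 0.159, DESeq2 adjusted p = 0.00907), and the translocon subunit genes Sec61g and Sec61a1 were at -0.36 ± 0.10 and -0.23 ± 0.08. These genes serve secreted proteins in general, and the Paneth granule gene Lyz1 stood at 39039 to 77961 CPM in DSS and 99882 to 108235 CPM in water. With scaling factors computed without Paneth granule genes, 5 of the 18 estimates were above 0 and 13 below, with a median of -0.12. Any dependence of the 18 genes on granule genes other than through scaling was not tested. Summed, the 18 genes stood at 3321 to 3722 CPM in DSS and 3739 to 3947 CPM in water, so the groups did not overlap.

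Regulators of class I transcription were nearly level. Of 21 listed genes, among them the RFX and NF-Y subunits, interferon regulatory factors and STATs, 0 were called by edgeR or DESeq2 and the median log2 change was -0.0099. Irf1, an interferon regulatory factor that interferon-gamma induces, had a log2 change of -0.01 ± 0.11 (SE; edgeR adjusted p = 0.972). Irf8 had the smallest p, with a log2 change of 0.23 ± 0.08 (SE; edgeR adjusted p = 0.244), followed by the NF-kB gene Nfkb1 at 0.13 ± 0.08, the NF-Y subunit gene Nfyb at -0.20 ± 0.12 and Stat2 at -0.13 ± 0.09. Of 9 interferon receptor and kinase genes, Ifngr1, a chain of the interferon-gamma receptor, stood at 0.17 ± 0.06 and the kinase gene Jak1 at -0.26 ± 0.07 (SE; edgeR adjusted p = 0.230 and 0.167). Jak1 was called lower by DESeq2 (adjusted p = 0.0265), which called 2.24% of 13223 genes lower. The groups did not overlap for Ifngr1 or Jak1, 1 gene above and 1 below among 9, where 7.4% of all genes lay above and 7.51% below. Il10rb, a chain of the interferon-lambda receptor, stood at -0.12 ± 0.08 and Ifngr2, the other chain of the interferon-gamma receptor, at 0.086 ± 0.068.

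Other genes that interferon-gamma is known to induce had mostly negative estimates, a direction that rested on water 2. Of 22 listed GTPase, chemokine and related genes 15 were tested, and 14 of the 15 estimates were below 0, with a median log2 change of -0.43. Without water 2, 8 estimates were above 0 and 7 below, with a median of 0.045. Iigp1, an immunity-related GTPase gene chosen after its values were seen, was at 0.176, 0.383, 0.309 and 0.789 CPM in DSS 1 to 4, against 0.402, 4.52 and 0.210 CPM in water 1 to 3, so water 2 alone was high. Neither edgeR nor DESeq2 called a gene of the list, and 3 had every DSS library below every water library against 7.51% of all genes. Gbp7 and Gbp3, guanylate-binding proteins, had log2 changes of -0.61 ± 0.18 and -0.56 ± 0.19, and the chemokine gene Cxcl11 had -1.50 ± 0.47 (SE; edgeR adjusted p = 0.184, 0.218 and 0.199). These were the 3 genes without overlap, and Cxcl11 was barely detected, at 0.0344 to 0.236 CPM in DSS and 0.446 to 0.577 CPM in water. Wars, a tryptophan tRNA synthetase gene, stood at -0.21 ± 0.10 with overlapping groups. Summed, the list stood at 282 to 328 CPM in DSS and 325 to 393 CPM in water, so its groups overlapped.

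The genes whose levels followed the 9-gene mean most closely were sought among 9110 genes of average log2 CPM of at least 3, by Pearson's r over the 7 libraries. Within that mean Nlrc5, a gene of low counts, swung widest, from a log2 deviation of -1.55 in water 1 to 1.13 in DSS 4. The ranking therefore leans on Nlrc5. The closest were H2-Q4, a nonclassical class I gene, at 0.973, then Phf21b at 0.970, Ets1 at 0.955 and H2-Q7 at 0.950. Cd177, Anks3, Txndc9, Phc2, Ndufc2 and the immunoproteasome gene Psmb8 completed the first 10, at 0.948 to 0.932. The 7 libraries lie in a lower group of 3 and an upper group of 4, so these values are given as a description, and H2-Q4 and H2-Q7 share sequence with other class I genes, 24.3% and 34.9% of their 50-base windows.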

How the data were processed

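The authors deposited raw counts per gene for each library; per the file headers these came from featureCounts 1.5.3 (primary alignments, minimum overlap fraction 0.8, no strand option, GENCODE mouse release 15). Per the submitters' processing notes the build was mm10 and the tools were DESeq2, STAR 2.5.3a and featureCounts 1.5.2. Symbols from GENCODE release 21 matched 52403 of 52550 genes. Whether libraries came from separate animals is not stated in the labels, so p-values reflect only the spread among libraries. Every pair of libraries differed by more than sampling noise (lowest chi-square per degree of freedom 13.3).

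In R 4.3.3, edgeR 4.0.16 compared DSS with water without covariates by its quasi-likelihood test, after filterByExpr and TMM scaling. P-values were adjusted by Benjamini-Hochberg over all 17449 genes at a threshold of 0.05. DESeq2 1.42.0, limma 3.58.1 (voom), other scalings, filters, subsets by age and by deposited name, and leaving out each library were alternatives. Ratios were tested by exact permutation. Per list, up to 4 genes with the smallest p and a fixed set of known genes were named. The result of 1 gene under this rule is not reported here. Promoter letters were searched on both strands. At these depths 3 counts correspond to 0.0924 to 0.129 CPM. The members, lists, tests and named genes were chosen with earlier results of these data known. Scripts were tested on simulated data.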

Additional observations from a re-analysis of the deposited data

Results flagged for a closer look

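Among 46 series of 4 DSS values examined (genes, on the log2 CPM scale, and ratios), 8 had 1 library far from the other 3. The measure was the gap to the nearest library as a share of the range, and chance alone gives about 5%. All series come from the same 4 libraries, and the class II genes among them rise and fall together. The 8 cases are therefore not independent, and setting them beside 5% is no test. The water group, with 3 libraries, was not examined in this way. DSS 1 was the distant library in 7 of them and was the low one each time. For Tap1 the share was 0.878, with 3.63 in DSS 1 and 4.23 to 4.31 in the other DSS libraries. For the log2 ratio of Tap1 to Tap2 it was 0.968, with 0.46 in DSS 1 and 0.96 to 0.98 in the others. For the class II genes it was 0.835 for H2-Aa, 0.865 for H2-Ab1, 0.887 for H2-Eb1, 0.884 for Cd74 and 0.842 for H2-DMb2. H2-Aa stood at 0.18 in DSS 1 and at 4.46 to 5.30 in the other DSS libraries. The remaining case was H2-M3, a nonclassical class I gene, with a share of 0.929, where DSS 4 stood at 2.51 and the others at 1.88 to 1.92. The causes were not tested.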

How the results depend on the processing

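No paired analysis was possible because the replicate numbers follow accession order and the labels pair no libraries. None of the 9 genes was called under the 17 alternatives except under library totals only, where 1 was called, Tapbp at 0.37 (edgeR adjusted p = 0.0350). That scaling called 2107 genes higher and 28 lower, and the log2 changes became 0.24 for H2-K1, 0.14 for H2-T23, 0.22 for B2m, 0.21 for Tap2 and 0.22 for Erap1. DESeq2 called 346 genes higher and 296 lower, and edgeR without a low-count filter 240 and 201. H2-K1 was 0.0087 without the filter and 1e-04 with a minimum of 1 CPM in 4 libraries. In 2 subsets a group was 1 library, assumed to vary like the other group, so their values test no group difference. With 10-week mice only, where water 3 was the single water library, H2-K1 was 0.13, B2m 0.13 and Nlrc5 1.81. With only DSS 4 and the 3 water libraries, whose deposited names share the number 6, 3 genes were called higher and 6 lower, and H2-K1 was 0.12, B2m 0.12 and Erap1 0.051. Leaving out each library in turn gave 0 to 168 genes higher and 0 to 135 lower, the most in both directions without DSS 1, and 9 higher without DSS 4. Over the same fits H2-D1 ran from 0.0077 without water 1 to 0.25 without water 2, Tap1 from 0.059 to 0.35 and H2-T23 from -0.15 to -0.023 for the same libraries, and the Tap1 to Tap2 ratio from 0.10 without water 3 to 0.31 without DSS 1. H2-K1 ran from -0.065 to 0.095, B2m from -0.073 to 0.046, Tap2 from -0.17 to 0.076 and Erap1 from -0.084 to 0.021. The heavy-chain ratio ran from -0.0032, without water 1, to 0.13. Nlrc5, H2-D1, Tap1 and Tapbp kept their sign throughout. Nlrc5 ran from 0.16 without water 1 to 1.82 without water 2, and was 0.26 with age as a covariate and 0.93 by limma-voom. The causes were not tested.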
